A study of Homo sapiens with 6 samples.

Results

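The genes described here are 9 markers of the astrocyte-like state of glioma cells, GFAP, SLC1A3, FABP7, S100B, AQP4, SPARCL1, CLU, ALDOC and HOPX, chosen by name out of 60612 genes in the count table and found there by matching Ensembl identifiers to GENCODE 29 symbols. They were followed in 6 polyadenylated RNA libraries of U251, an established human glioma cell line, with 3 libraries of the TEAD3 knockdown and 3 of the control. The knockdown is labelled as transient, with an siRNA and also a plasmid vector named, and the treatment of the control cells is not stated. Nor do the labels state that replicates were separate cultures. The p-values therefore rest on the spread among these libraries, which may be technical. These were bulk libraries of a single line, so a transcript in fewer cells and less transcript per cell cannot be told apart.

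Astrocytes take up glutamate and potassium from around synapses, control water flow at blood vessels and hold a scaffold of intermediate filaments, and glioblastoma cells can express part of this programme. In the glioma literature the astrocyte-like state stands beside mesenchymal-like and progenitor-like states. TEAD3 is a transcription factor through which YAP1 and TAZ, the Hippo pathway's coactivators, act on genes. The comparison asked whether these markers differed after its knockdown.

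TEAD3 transcript itself was at 4.70, 8.35 and 6.07 CPM in knockdown replicates 1 to 3, against 14.9, 20.3 and 21.0 CPM in control replicates 1 to 3, where CPM is the count scaled to library size after TMM normalisation. All 3 knockdown libraries lay below all 3 controls, and the log2 fold change of -1.55 passed the test (edgeR adjusted p = 0.0114). That call was lost without knockdown replicate 1 or 3 or control replicate 3 (edgeR adjusted p = 0.0532, 0.0938 and 0.0541) and with no filter on low counts (0.0639). Total counts lay between 63145768 and 64808615 in the knockdown libraries and between 58344026 and 63685272 in the controls. A value of 3 counts corresponds to between 0.0457 and 0.0529 CPM, a floor that covers counting error only. Control replicates 1 and 2 stood apart from each other: their deviations from the mean of the 6 libraries correlated with the GC content of the genes at -0.55 and 0.668 (Spearman, across 11551 genes, which are not independent replicates), while the other 4 libraries lay between -0.222 and 0.18. With transcript length the deviations correlated at -0.293, -0.106 and -0.0362 in knockdown replicates 1 to 3. In control replicates 1 to 3 these values were 0.293, -0.101 and 0.251, so length leaned partly with the groups.

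Of the 9 markers, 3 had knockdown and control libraries that did not overlap: GFAP was lower and SLC1A3 and FABP7 were higher in the knockdown. Libraries did not overlap for 11% of the 17723 tested genes with higher knockdown values and for 10.6% with lower ones. None of the markers passed edgeR's quasi-likelihood test across all genes (adjusted p under 0.05), which called 0.655% of the genes tested, 0.451% higher and 0.203% lower. Before adjustment, 15.6% of the genes had a p under 0.05, and among these SLC1A3 and FABP7 were higher and GFAP was lower. DESeq2, which called 4.92% of the genes, called SLC1A3 alone of the markers, and limma-voom called none of them. Of the 9, 7 passed the filter on low counts and were tested, AQP4 did not pass it, and HOPX was listed at 0 in every library. The median log2 fold change of the 7 tested markers was -0.04, against -0.0012 over all genes tested.

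The levels of the markers differed widely once scaled by exon length. CLU, which encodes the secreted chaperone clusterin, stood highest at 23.9 CPM per kilobase of exon over the 6 libraries, above 88.6% of the 16327 protein-coding genes with any count. FABP7, a fatty acid binding protein of radial glia, was at 1.20 CPM per kilobase and SLC1A3, the glial glutamate transporter EAAT1, at 0.868 CPM per kilobase, above 36.9% and 33.9% of those genes. The ranges of these 2 genes overlapped, and all their values lay below the lowest CLU value and above every value of the remaining markers. S100B (calcium binding), GFAP (intermediate filament), SPARCL1 (secreted matrix protein) and ALDOC (brain aldolase) followed at 0.197, 0.0837, 0.0818 and 0.0741 CPM per kilobase, and their ranges over libraries overlapped. AQP4, the water channel of astrocyte endfeet, came last of the markers with any count, at 0.0102 CPM per kilobase, with a range that overlapped those of S100B, SPARCL1 and ALDOC and lay below that of GFAP. Scaled by the longest annotated transcript in place of all exons, SPARCL1 and ALDOC changed places, at 0.095 and 0.109 CPM per kilobase.

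**Figure D1:**
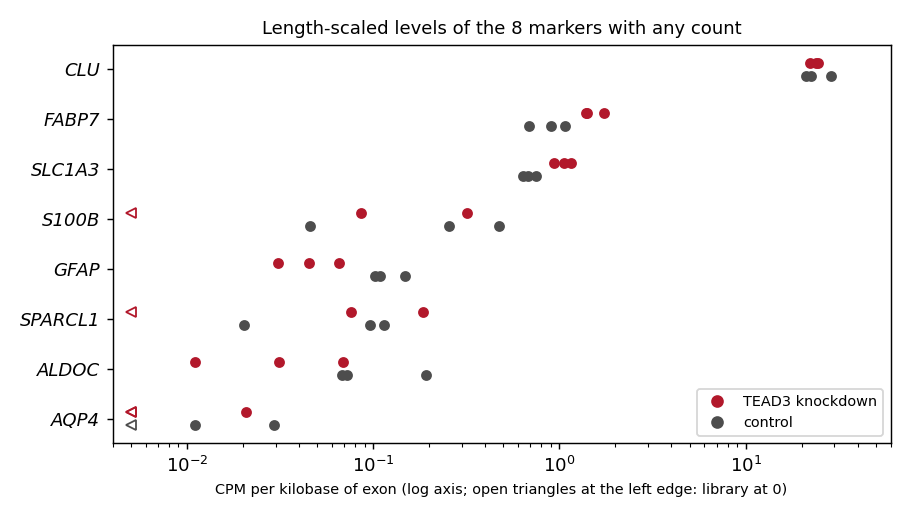
Length-scaled level (CPM per kilobase of exon, log axis) of the 8 markers with any count, 1 point per library, TEAD3 knockdown in red above control in grey. CLU stands apart at the top with a mean of 23.9, FABP7 and SLC1A3 lie close to 1, and libraries at 0 are drawn as open triangles at the left edge.

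The astrocytic markers were thus unevenly expressed in this line. CLU was abundant, and SLC1A3 and FABP7 had 107 to 471 counts per library. The mature astrocyte genes with the highest levels, GLUL, CRYAB and GJA1, were at 16.6, 4.17 and 3.09 CPM per kilobase. Others of that list were nearly or wholly silent. KCNJ10 and GJB6 had 0 counts in all 6 libraries, and SLC1A2, ACSBG1 and ALDH1L1 had at most 10, 19 and 30 counts in any library. GFAP and AQP4, widely used to mark astrocytes, were at 24 to 108 and at 0 to 10 counts per library, and HOPX, a homeodomain protein of radial glia and astrocytes, had 0 counts in all 6 libraries. Markers of the mesenchymal-like glioma state were all present, 8 of 8 tested, from CHI3L1 at 0.918 to VIM at 791 CPM per kilobase, with CD44 at 63.2 CPM per kilobase. edgeR called none of the 8 (unadjusted p under 0.05 for 1 higher and 1 lower, and 1 DESeq2 call). Over all tested genes 15.6% had such a p and DESeq2 called 4.92%, in either direction. Markers of other cells of the brain were sparse, apart from some neuronal ones, and none was called. The endothelial marker VWF and the microglial marker CSF1R had 36 to 113 and 38 to 58 counts per library, close to the counts of GFAP. The summed level of 6 microglial markers was 1.10 to 1.76 CPM in the knockdown and 0.96 to 1.27 CPM in the controls, with AIF1 and TYROBP at 0. That of 6 oligodendrocyte markers was 0.465 to 0.64 CPM in the knockdown and 0.229 to 1.08 CPM in the controls, with MOG, MAG and MOBP at 0, and that of 4 endothelial markers was 0.995 to 2.19 CPM in the knockdown and 1.9 to 2.4 CPM in the controls. The 6 neuronal markers summed to 31 to 32.1 CPM in the knockdown and 32 to 36.5 CPM in the controls. The part of these sums in the results below was not tested.

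GFAP, the filament protein that defines astrocytes in tissue sections, was at 0.545, 0.375 and 0.796 CPM in knockdown replicates 1 to 3, against 1.25, 1.32 and 1.80 CPM in control replicates 1 to 3. Every knockdown library lay below every control, on counts of 34, 24 and 52 in the knockdown and 82, 75 and 108 in the controls. GFAP averaged 0.572 ± 0.212 CPM in the knockdown and 1.46 ± 0.298 CPM in the controls (SD, n = 3 each). Its log2 fold change was -1.34 with SE 0.387. The fitted ratio was 0.394 (95% interval 0.218 to 0.711), and the adjusted p did not pass (edgeR unadjusted p = 0.00517, adjusted p = 0.143). DESeq2 gave -1.35 with an adjusted p of 0.0519, and over all alternatives the adjusted p ranged from 0.0519 to 0.414. GFAP (ENSG00000131095) occupies 44903161 to 44916937 of GRCh38 chromosome 17 (minus strand). GFAP exons overlap those of CCDC103 and FAM187A on the opposite strand, which had 316 to 605 and 1033 to 1561 counts per library and log2 fold changes of 0.16 and 0.07 (edgeR adjusted p = 0.801 and 0.922). The counts of GFAP are uncertain where strand was not used.

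Vimentin, nestin and synemin, which build filaments with GFAP, had higher length-scaled levels, at 791, 33.4 and 8.33 CPM per kilobase. VIM was at 3680 ± 262 CPM in the knockdown and 4480 ± 311 CPM in the controls (-0.29 on the log2 scale, edgeR adjusted p = 0.2). All knockdown libraries were below all controls for VIM too, whose exons overlap antisense genes. NES was at 186 ± 20.8 CPM in the knockdown and 185 ± 36.8 CPM in the controls (0.0045, edgeR adjusted p = 0.994). SYNM was at 62 ± 1.03 CPM in the knockdown and 68.3 ± 5.33 CPM in the controls, without overlap and not called (-0.14, edgeR adjusted p = 0.551).

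SLC1A3, which clears glutamate from the space around synapses, was at 5.84, 6.66 and 7.21 CPM in knockdown replicates 1 to 3, against 3.98, 4.69 and 4.24 CPM in control replicates 1 to 3. The groups did not overlap, and the spread within each was small, with coefficients of variation of 10.5% in the knockdown and 8.34% in the controls. SLC1A3 averaged 6.57 ± 0.689 CPM in the knockdown and 4.30 ± 0.359 CPM in the controls (SD, n = 3 each), 1.53-fold with a 95% interval of 1.15 to 2.02. On the log2 scale the difference was 0.61 with SE 0.184 (edgeR unadjusted p = 0.0068, adjusted p = 0.157). DESeq2 called it at an adjusted p of 0.0481, and over all alternatives the adjusted p ranged from 0.0481 to 0.478. SLC1A3 (ENSG00000079215) spans 36606355 to 36688334 on the plus strand of GRCh38 chromosome 5, and no annotated gene shares its exons. The neuronal transporter SLC1A1, at 6.46 CPM per kilobase, stood above SLC1A3 on that scale, with 24.6 ± 1.65 CPM in the knockdown and 27.1 ± 1.87 CPM in the controls (log2 fold change -0.14, edgeR adjusted p = 0.609). SLC1A2, the main glutamate transporter of mature astrocytes, had at most 10 counts in any library and was not tested.

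FABP7, known as brain lipid binding protein and a marker of radial glia, was at 4.72, 3.79 and 3.81 CPM in knockdown replicates 1 to 3, against 2.47, 1.89 and 2.93 CPM in control replicates 1 to 3. Again the groups did not overlap, with knockdown replicate 1 the highest and control replicate 2 the lowest. FABP7 averaged 4.11 ± 0.528 CPM in the knockdown and 2.43 ± 0.523 CPM in the controls (SD, n = 3 each), 1.69-fold with a 95% interval of 1.18 to 2.43. On the log2 scale the difference was 0.76 with SE 0.237 (edgeR unadjusted p = 0.00842, adjusted p = 0.166), and over all alternatives the adjusted p ranged from 0.0654 to 0.481. FABP7 (ENSG00000164434) occupies 122779475 to 122784074 of GRCh38 chromosome 6 (plus strand). Its paralogs FABP3, FABP4 and FABP5 were at 0.326 ± 0.268, 0.293 ± 0.252 and 0.416 ± 0.056 CPM in the knockdown and at 0.228 ± 0.0737, 0.119 ± 0.0651 and 0.229 ± 0.108 CPM in the controls. None of these paralogs was called (edgeR adjusted p = 0.822, 0.555 and 0.56). The groups overlapped for FABP3 and FABP4 and not for FABP5, but FABP5, which has near-identical pseudogenes, is uncertain.

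CLU did not separate the groups. It was at 163, 147 and 158 CPM in knockdown replicates 1 to 3, against 149, 191 and 139 CPM in control replicates 1 to 3. All knockdown values lay inside the range of the controls, in which replicate 2 was the highest. CLU averaged 156 ± 8.19 CPM in the knockdown and 160 ± 27.8 CPM in the controls (SD, n = 3 each), and the log2 fold change was -0.04 with SE 0.124 (edgeR adjusted p = 0.934). Its 95% interval, 0.806-fold to 1.18-fold, was the narrowest among the 7 tested markers. The sign turned without control replicate 2, where the log2 fold change was 0.11. CLU (ENSG00000120885) is on GRCh38 chromosome 8 from 27596917 to 27615031, and MIR6843, which lies in its exons on the same strand, had at most 1 count.

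ALDOC, S100B and SPARCL1 had few counts and overlapping groups. ALDOC, the aldolase isozyme of astrocytes, was at 0.0321, 0.203 and 0.0918 CPM in knockdown replicates 1 to 3, against 0.564, 0.211 and 0.200 CPM in control replicates 1 to 3. Knockdown replicate 2 overlapped the controls narrowly, and control replicate 1 stood high (log2 fold change -1.56, 95% interval 0.0894-fold to 1.28-fold, edgeR adjusted p = 0.426, and -0.9 without control replicate 1). The ubiquitous aldolase ALDOA, in contrast, was at 1530 ± 87.2 CPM in the knockdown and 1190 ± 208 CPM in the controls, without overlap and not called (0.36, edgeR adjusted p = 0.217), and its exons overlap other genes on both strands. S100B, a calcium-binding protein that astrocytes secrete, was at 0.465, 0.125 and 0 CPM in knockdown replicates 1 to 3, against 0.686, 0.370 and 0.0666 CPM in control replicates 1 to 3. Libraries of one group differed as much as the groups did, with 45, 21 and 4 counts in the controls alone (log2 fold change -0.93, 95% interval 0.0933-fold to 2.95-fold, edgeR adjusted p = 0.758). Leaving out control replicate 1 gave -0.15 for S100B, leaving out knockdown replicate 1 gave -2.55, and limma-voom gave -1.84. SPARCL1, also known as hevin and involved in synapse formation, was at 0, 0.265 and 0.643 CPM in knockdown replicates 1 to 3, against 0.396, 0.0705 and 0.333 CPM in control replicates 1 to 3. The knockdown values lay on both sides of the controls (0.18, 95% interval 0.215-fold to 5.98-fold, edgeR adjusted p = 0.968), and the sign turned with limma-voom and with the replicate block (-0.98 and -0.12). On GRCh38, ALDOC (ENSG00000109107) is at 28573115 to 28577264 of chromosome 17, S100B (ENSG00000160307) at 46598962 to 46605208 of chromosome 21 and SPARCL1 (ENSG00000152583) at 87473335 to 87531061 of chromosome 4, all on the minus strand.

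AQP4 had 0, 8 and 0 counts in knockdown replicates 1 to 3 and 0, 10 and 4 counts in control replicates 1 to 3. Its 3 libraries at 0 were knockdown replicates 1 and 3 and control replicate 1. Without the filter its log2 fold change was -0.92 (edgeR adjusted p = 0.901). HOPX was at 0 in all libraries, which allows a level of up to 0.0529 CPM in the least deep one. A difference in either gene was not detectable at this depth. Both are on the minus strand of GRCh38, AQP4 (ENSG00000171885) at 26852038 to 26865818 of chromosome 18 and HOPX (ENSG00000171476) at 56647988 to 56681899 of chromosome 4. The related channel AQP1 was at 1.70 ± 0.372 CPM in the knockdown and 3.00 ± 0.573 CPM in the controls, without overlap and not called, and its exons overlap another gene on the same strand (-0.82, edgeR adjusted p = 0.187).

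**Figure D2:**
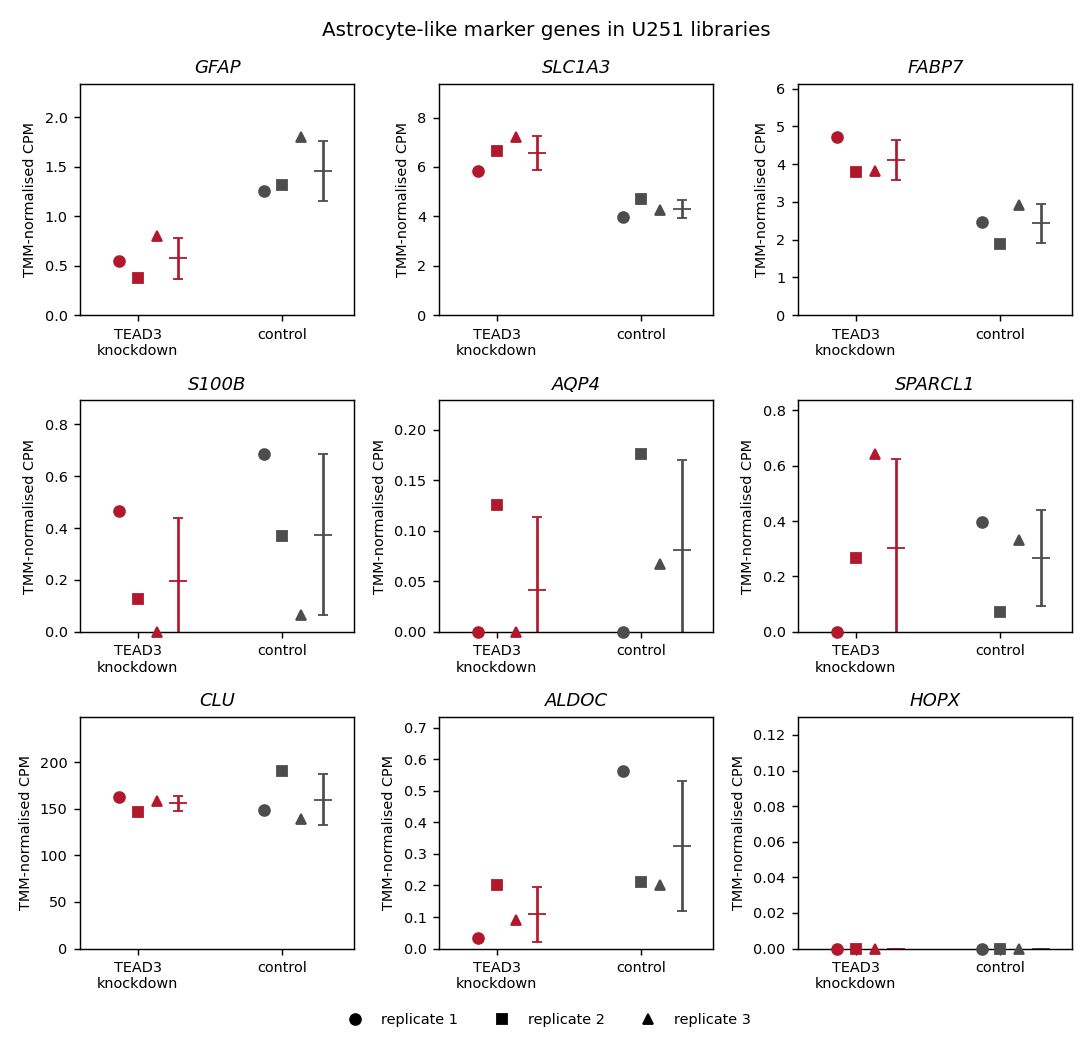
TMM-normalised CPM of each of the 9 markers on its own linear axis from 0, with 1 point per library (circle, square and triangle for replicates 1, 2 and 3), TEAD3 knockdown left and control right; the dash and bar give the mean and SD of 3 libraries, and bars end at the axis where the SD exceeds the mean. GFAP, SLC1A3 and FABP7 separate the groups, while S100B, AQP4 and SPARCL1 hold libraries at 0.

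**Figure D3:**
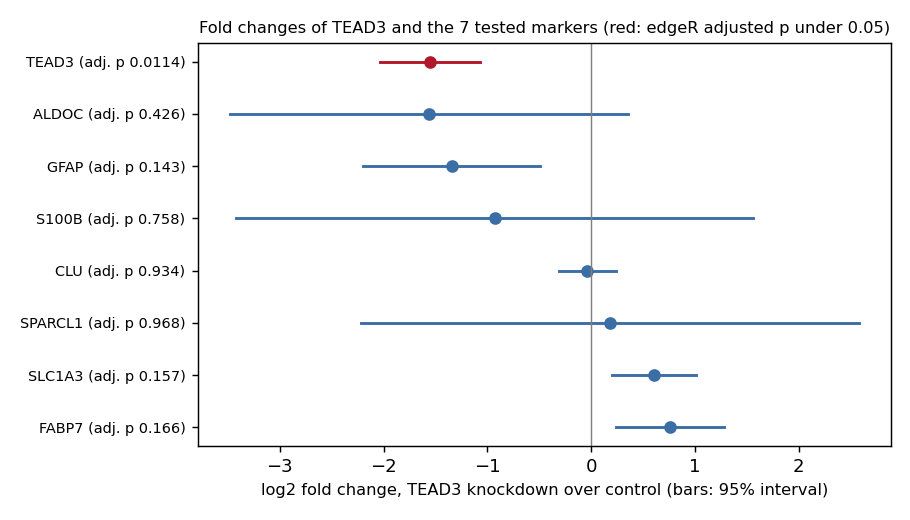
Log2 fold change of TEAD3 and the 7 tested markers, TEAD3 knockdown over control, with 95% intervals from the edgeR fit and the adjusted p beside each name. TEAD3 alone is called (red), at -1.55; the intervals of GFAP, SLC1A3 and FABP7 do not reach 0 before adjustment, and those of ALDOC, S100B and SPARCL1 are the widest.

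The 250 bases before each RefSeq start were searched for the letters of a TEAD site in the GRCh38.p14 promoter table, in which 11 windows matched 6 of the 9 markers. The 6 letters CATTCC, on either strand, were in 3 of these windows, which came from SLC1A3 and AQP4, against 11.9% of all 35116 windows. The 2 windows of AQP4 share the same letters, so 2 places remain. They are shown because SLC1A3 is one of the markers without overlap and AQP4 is nearly silent, with the matching letters in capitals and 12 bases on each side.
SLC1A3: ctgtgcggtttcCATTCCccactcctcctt
AQP4: taaatgtttttgCATTCCtgaaatgccctg
The SLC1A3 stretch is chr5:36606518-36606547 on the plus strand, with its match 76 bases before one of 3 RefSeq starts, in a stretch that GENCODE 29 places within the gene. The AQP4 stretch is chr18:26865879-26865908 on the minus strand, with its match 189 and 93 bases before 2 of 3 starts. No window of FABP7 held these letters, and GFAP, S100B and CLU had no window to search. The letters TTCNNNGAA, the core of a STAT site, were in 1 window each of SLC1A3 and AQP4, against 6.57% of all windows. TGGGAA, bound by the Notch effector RBPJ, and the palindromic NFI motif were in none of the 11, against 20.8% and 0.0285% of all windows. These are matches of letters in short windows and say nothing of binding.

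The wider astrocyte programme was read from 4 lists of related genes, 73 in all, of which 55 were tested. edgeR called 2 of them, both higher, HEY1 and ID4, and none lower, where the shares over all tested genes were 0.451% and 0.203%. DESeq2 called 5 higher and 4 lower, where it called 4.92% of all genes in either direction. The lists were chosen with earlier results of these data known, so these shares cannot show an excess. When single libraries were left out, the edgeR count ranged from 0 to 2 in each direction, and that over all genes from 20 to 589. Fold changes were above 0 for 29 and below 0 for 26, with a median of 0.0045.

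In the first list, 31 further genes of the astrocyte-like programme known from glioblastoma, 23 were tested, 1 was called higher and 22 were not called, with a median log2 fold change of 0.003. Unadjusted p was under 0.05 for 2 higher and 1 lower, and DESeq2 called 2 higher and 1 lower. Over all tested genes these shares were 15.6% and 4.92% in either direction. The lower gene in both was PMP22, at 69.9 ± 12.9 CPM in the knockdown and 100 ± 8.85 CPM in the controls. Its groups did not overlap (-0.52, edgeR adjusted p = 0.109, DESeq2 adjusted p = 0.00675). HEY1, a transcriptional repressor induced by Notch signalling, was at 5.21, 5.45 and 5.23 CPM in knockdown replicates 1 to 3, against 2.29, 1.92 and 1.5 CPM in control replicates 1 to 3. The knockdown libraries were nearly equal and all well above the controls. The mean level was 5.30 ± 0.129 CPM in the knockdown and 1.9 ± 0.394 CPM in the controls (SD, n = 3 each). HEY1 rose 2.78-fold, or 1.48 on the log2 scale with SE 0.224 (edgeR adjusted p = 0.0169). The call was lost without control replicate 3 or knockdown replicate 1, 2 or 3 (edgeR adjusted p = 0.0676, 0.0866, 0.0539 and 0.0948) and with no filter on low counts (0.0752), at log2 fold changes of 1.33 to 1.63 whichever library was left out. PTPRZ1, a receptor phosphatase of glial progenitors, was at 12.8 ± 0.742 CPM in the knockdown and 7.76 ± 1.06 CPM in the controls, without overlap and not called (0.72, edgeR adjusted p = 0.0719), while DESeq2 called it (adjusted p = 0.00164), as did edgeR with the length and GC correction (0.76, 0.0225) and with robust dispersions (0.044). edgeR did not call PTPRZ1 with the replicate block, alone or added to that correction (adjusted p = 0.118 and 0.0588). SPARC, a matrix protein and paralog of SPARCL1, had the highest length-scaled level of the list and was at 2410 ± 77.9 CPM in the knockdown and 2430 ± 58.8 CPM in the controls (-0.01, edgeR adjusted p = 0.97). The next in level, ANXA5 and S100A16, had log2 fold changes of -0.16 and 0.15 (edgeR adjusted p = 0.426 and 0.528). The groups did not overlap for ANXA5 and overlapped for S100A16. The signs of SPARC and S100A16 turned with the length and GC correction (0.07 and -0.02). HEPN1, MT3, MLC1 and PMP2 had 0 counts in every library.

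Of 12 genes of mature astrocytes, 8 were tested and none was called, with a median of 0.17. GLUL had an unadjusted p under 0.05 and was called lower by DESeq2. It encodes the glutamine synthetase that turns glutamate into glutamine. It was at 118, 137 and 122 CPM in knockdown replicates 1 to 3, against 174, 167 and 182 CPM in control replicates 1 to 3, so that the groups stood well apart. The log2 fold change was -0.47 with SE 0.0971 (edgeR adjusted p = 0.0582, DESeq2 adjusted p = 0.000612). edgeR called GLUL when control replicate 2 was left out (-0.51, adjusted p = 0.0284), after the length and GC correction (-0.40, 0.0297), with robust dispersions (0.0364) and with the stricter filter (0.0472). It did not call GLUL once the replicate block was added to that correction (0.0552). CRYAB, a small heat shock protein, and GJA1, the gap junction protein connexin 43, were not called (-0.22 and 0.18, edgeR adjusted p = 0.477 and 0.594). For both genes the groups did not overlap. APOE, the lipid carrier that astrocytes secrete, was low at 0.476 ± 0.261 CPM in the knockdown and 0.241 ± 0.0802 CPM in the controls (0.98, edgeR adjusted p = 0.528).

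Of 14 transcription regulators of the astroglial lineage, 12 were tested, 1 was called higher and none lower, with a median of -0.21. Unadjusted p was under 0.05 for 3 higher and 5 lower, where 15.6% of all tested genes had such a p in either direction. The libraries did not overlap for 4 higher and 6 lower, where the shares over all tested genes were 11% and 10.6%. ID4, an inhibitor of basic helix-loop-helix factors, was at 16, 11 and 15.9 CPM in knockdown replicates 1 to 3, against 7.46, 4.79 and 7.47 CPM in control replicates 1 to 3. Replicate 2 was the lowest library in both groups. The log2 fold change was 1.12 with SE 0.215, 2.17-fold (edgeR adjusted p = 0.047), and it was not called when control replicate 1 or 3 (adjusted p = 0.094 and 0.132) or knockdown replicate 1 or 3 was left out (0.215 and 0.278), with no filter (0.143) and with library size alone (0.0602). Its paralogs ID1 and ID3 were at 293 ± 26.3 and 329 ± 21.4 CPM in the knockdown and 218 ± 19.8 and 263 ± 22.0 CPM in the controls, without overlap and not called by edgeR (0.43 and 0.33, adjusted p = 0.102 and 0.165), while DESeq2 called both (0.0063 and 0.0421). With the length and GC correction the log2 fold changes of ID1 and ID3 fell to 0.25 and 0.17 (edgeR adjusted p = 0.296 and 0.343). SOX2, a factor of neural progenitors and glia, was at 124 ± 10.1 CPM in the knockdown and 150 ± 12.2 CPM in the controls (-0.27, edgeR adjusted p = 0.247), and LHX2 at 2.20 ± 0.282 CPM in the knockdown and 3.51 ± 0.992 CPM in the controls (-0.67, 0.253). SOX2 and LHX2 were both lower without overlap and not called. NFIB and NFIX, factors of the NFI family that promote astrocyte fate, were chosen after their values were seen. Both were lower without overlap, at -0.56 and -0.48, not called by edgeR (adjusted p = 0.0919 and 0.129) and called by DESeq2 (0.00526 and 0.0144). NFIA, of the same family, had overlapping groups and was called by neither (-0.25, edgeR adjusted p = 0.439, DESeq2 adjusted p = 0.38). ZBTB20, another regulator of the list, was higher without overlap and not called (0.48, edgeR adjusted p = 0.343).

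**Figure D4:**
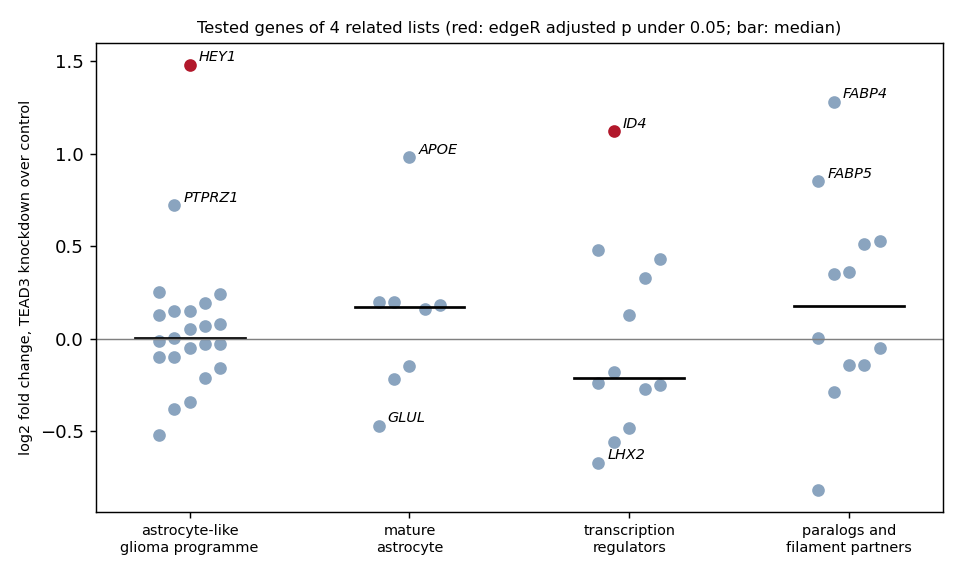
Log2 fold change, TEAD3 knockdown over control, of the tested genes of the 4 related lists, 1 point per gene with the list median as a bar. HEY1 at 1.48 and ID4 at 1.12 are the called genes (red), and the 2 genes with the largest change of each list are named.

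The last list held 16 paralogs and filament partners of the markers, of which 12 were tested and none was called (unadjusted p under 0.05 for 1 higher and 2 lower, and no DESeq2 call), with a median of 0.18. Over all tested genes 15.6% had such a p and DESeq2 called 4.92%, in either direction. The libraries did not overlap for 2 higher and 3 lower, where the shares over all tested genes were 11% and 10.6%. S100A6, a paralog of S100B, had the highest length-scaled level of them, 1890 CPM per kilobase, and was at 2060 ± 487 CPM in the knockdown and 1610 ± 260 CPM in the controls (0.35, edgeR adjusted p = 0.333). Its log2 fold change was 0.04 with the length and GC correction and 0.15 without knockdown replicate 1. Exons of SPARC, PMP22, SYNM, CRYAB, ALDH1L1, ACSBG1, SLC1A2, LHX2, NFIX, FABP5 and S100A6 overlap a gene on the opposite strand and those of APOE one on the same strand, so their counts are uncertain.

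Profiles most like those of the markers were sought over the 6 libraries by the root mean square difference of centred log2 CPM, among genes whose mean log2 CPM was 3 or more. For SLC1A3 the nearest was PLK3, a polo-like kinase gene, at 0.046, against an SD of SLC1A3 itself of 0.353. For FABP7 it was the zinc finger gene ZMYM5 at 0.119 and for GFAP the centromere histone gene CENPA at 0.399, where FABP7 and GFAP had SDs of 0.478 and 0.823. CLU was nearest to TRIM41, a ubiquitin ligase gene, at 0.0209. The nearest to ALDOC was SLC9A3, a sodium and proton exchanger gene, at 0.513, to S100B AC068831.7 at 0.772 and to SPARCL1 AC118553.2 at 0.902. PLK3, ZMYM5 and CENPA were not called (log2 fold changes 0.65, 0.75 and -0.86, edgeR adjusted p = 0.102, 0.0564 and 0.0582).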

How the data were processed

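The deposited table held the authors' whole-number counts per Ensembl gene for 6 libraries, not scaled for depth. Per the labels' protocols, RNA was captured on oligo(dT) beads and libraries were strand-marked with dUTP and read from both ends. GEO lists cutadapt 1.9, HISAT2 2.0.4, StringTie 1.3.4d, DESeq2, edgeR and build GRCh38, per the submitters' processing notes. Not given in the sources used here were the program that wrote the counts, its annotation, its use of strand and its treatment of multi-mapping reads. Over the table the value 4 occurred 6040 times, against 3370 times for 3 and 1971 times for 5, so low counts need not be single reads, and floors may be too low.

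All 17723 genes kept by filterByExpr (minimum count 10), of 29520 with at least 1 count, were fitted in R 4.3.3 with edgeR 4.0.16 (TMM, two-sided quasi-likelihood F test, group alone, Benjamini-Hochberg over all genes, calls at an adjusted p under 0.05). Of 60612 identifiers, 58394 were in GENCODE 29 and 60588 had a symbol. Levels per kilobase divide CPM by the union of annotated exons. Alternatives were other scalings and filters, DESeq2 1.42.0, limma-voom (limma 3.58.1), robust dispersions, a replicate block, a loess correction (span 0.3) for transcript length and GC content, and leaving out each library. The code was tested on simulated data with changes planted only in genes above the median level, so low-count genes were not covered. That test recovered 58.8% of the 1.5-fold changes and 100% of the 2-fold and 4-fold ones. Libraries differed by more than counting noise, with chi-square over its degrees of freedom at 21.3 to 73 within groups and 38.7 to 87.4 between them. The members and lists were chosen with earlier results of these data known. Named genes are the 9 markers, TEAD3 and, of each related list, the called genes, the 3 with the highest level per kilobase and the 2 tested genes with the largest fold change. For each tested marker the gene with the nearest profile is also named, and all others were chosen after their values were seen. Promoter windows came from RefSeq. Some genes of the lists are not reported here by name.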

Additional observations from a re-analysis of the deposited data

How the results depend on the processing

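No marker was called higher or lower by edgeR under any scaling, filter, block or left-out library, and 1 was called higher by the DESeq2 test. GFAP, SLC1A3, FABP7, S100B and ALDOC kept their direction under every alternative run. CLU turned to 0.03 with the length and GC correction, with and without the replicate block, and ranged from -0.13 to 0.11 when single libraries were left out. SPARCL1 turned to -0.98 with limma-voom and -0.12 with the replicate block, with and without the length and GC correction, and ranged from -1 to 0.76 without single libraries. SPARC and S100A16 turned to 0.07 and -0.02 with the length and GC correction, with and without the block, and SPARC ranged from -0.04 to 0.0043 without single libraries. Of the related genes, 5 higher and 4 lower were called by DESeq2, 3 higher and 4 lower after correction for length and GC (2 and 1 with the block added), 3 higher and 1 lower with robust dispersions, 1 lower with the stricter filter, 1 higher with library size alone, and 0 higher with no filter or at an adjusted p under 0.01; without single libraries the counts ranged from 0 to 2 in each direction. The cause of these changes was not tested. Same-numbered libraries did not deviate together (correlations 0.0184, -0.106 and -0.0653). Libraries of unlike number were not compared in this way, and control replicates 1 and 2 deviated with GC content. Whether the numbers pair the samples is therefore not settled. The replicate block lowered the calls over all genes to 63, against 116. S100B, SPARCL1 and ALDOC did not pass the stricter filter and have no value there, nor an adjusted p from DESeq2. Over all genes the correction for length and GC gave 415 calls (210 higher and 205 lower, against 80 and 36), DESeq2 872, no filter 31, robust dispersions 197 and leaving out control replicate 2 gave 589 (259 higher and 330 lower), the other single libraries 20 to 73. Depth limits AQP4, HOPX, S100B, SPARCL1 and ALDOC.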

Other observations

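Some genes used as neuronal markers had counts in every library of this glioma line, with SYT1, SNAP25 and GAD1 at 2.64, 1.56 and 1.16 CPM per kilobase of exon. SYT1, a calcium sensor of synaptic vesicles, was at 17.1 ± 1.14 CPM in the knockdown and 17.2 ± 1.55 CPM in the controls (SD, n = 3 each), and GAD1, which makes GABA, was at 9.75 ± 0.52 CPM in the knockdown and 9.37 ± 1.53 CPM in the controls. SNAP25, a vesicle fusion protein, was at 4.09 ± 0.767 CPM in the knockdown and 6.35 ± 0.996 CPM in the controls, without overlap and not called (log2 fold change -0.63, edgeR adjusted p = 0.196). STMN2 had 0 counts in every library, and RBFOX3 had at most 8 counts.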
